A study of Rattus norvegicus with 14 samples.

Results

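The 6 genes Testin, Lrrc39, Ldb3, Cpe, Cadps and Grb14 are protein-coding genes of the fetal rat testis whose RNA was higher when the dams had been given the phthalate plasticizer dicyclohexyl phthalate (DCHP). They were taken by symbol from a count table of 18174 genes and were chosen by their measured rise: an adjusted p under 0.05 for a higher level at 600 or 900 mg/kg/day or for an upward slope over dose. Their levels and differences below are therefore a description and carry no test. All 6 passed the filter on low counts when all dose groups were fitted together, as did 12719 genes in all. With only the control group and the lowest dose fitted, Testin and Lrrc39 fell below that filter. The fold differences of Testin and Lrrc39 from control rest on few control counts.

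Harlan Sprague Dawley dams were dosed by oral gavage from gestational day 14 through 18, and fetal testes were dissected on day 18. The groups were corn oil vehicle alone and 4 groups given DCHP in that oil at 100, 300, 600 and 900 mg/kg/day, so every fetus, control fetuses included, was exposed to corn oil. There were 3 litters in each group except the highest dose, which had 2 litters. Testes were pooled by litter, so 1 library stands for 1 litter and mixes all cell types of the organ. RNA was measured by TempO-Seq, in which detector oligo probes are joined on their target RNA and sequenced, so a count reports the probed stretch of a gene and not its whole length. For that reason the level of a gene is compared here between litters and not with the level of another gene. Counts are set against those of other genes only to describe depth. Marker sums add genes within a litter, so genes with more counts weigh most, and are compared between litters.

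Library totals ran from 5558873 to 11272861 estimated counts. Litters did not order by dose on the first principal component of log2 CPM, which held 36.1% of the variance. Vehicle replicate 1 and replicate 1 at 100 mg/kg/day scored -42.6 and -65.1, beside -38.2 and -22.8 for both litters at 900 mg/kg/day, while the other 10 litters scored from -1.84 to 35.6. Members' values are therefore also given below without those 2 low-dose litters. As a check of the tissue, 10 Sertoli cell markers summed to 1340 to 1570 CPM in vehicle litters and 1320 to 1530 CPM at 900 mg/kg/day. Of 10 fetal Leydig cell markers, 0, 3, 5 and 6 passed as lower at 100, 300, 600 and 900 mg/kg/day. In pooled tissue, fewer cells of a type and less RNA per cell cannot be told apart.

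The 6 genes encode proteins of unlike function. Testin is a secreted relative of the protease cathepsin L that rat Sertoli cells release and that sits at their contacts with germ cells; it is unrelated to the focal adhesion protein of a similar name. Ldb3 and Lrrc39 encode proteins of the sarcomere, the contractile unit of striated muscle, at the Z-disc and the M-band. Cpe and Cadps act in regulated secretion, in which peptide hormones are trimmed inside granules that later fuse with the cell membrane. Grb14 encodes an adaptor that binds the activated insulin receptor and dampens its signal.

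The members were counted at low depth. Testin, Lrrc39 and Ldb3 had mean counts of 25.4, 23.1 and 22.1 per library, at percentiles 21.5, 20 and 19.4 of the tested genes. Grb14, Cadps and Cpe had mean counts of 52.1, 67.9 and 88.2, at percentiles 32.7, 37.1 and 42. Every member count was a whole number, against 83.6% of all values in the table.

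Testin (ENSRNOG00000018028, rn7 chromosome 17, 3846899 to 3859386, plus strand) was counted 7, 3 and 9 times in the vehicle litters, which is 0.695, 0.299 and 1.03 CPM (the count scaled to the TMM-scaled library total). It was at 1.05, 1.65 and 1.33 CPM at 100 mg/kg/day and at 2.04, 3.56 and 3 CPM at 300 mg/kg/day. It was at 4.5, 5.13 and 6.84 CPM at 600 mg/kg/day and at 6.63 and 6.35 CPM, from 55 and 74 counts, at 900 mg/kg/day. Each dose group up to 600 mg/kg/day lay wholly above the group below it, though vehicle and 100 mg/kg/day were separated only by 1.03 against 1.05 CPM, and the 2 highest groups overlapped. The group means ± SD were 0.674 ± 0.365 (n = 3) in vehicle and 6.49 ± 0.191 CPM (n = 2) at 900 mg/kg/day. Pooled over the group, the 19 vehicle counts give 0.658 CPM with an exact Poisson 95% interval of 0.396 to 1.03, and the 129 counts at 900 mg/kg/day give 6.47 CPM with an interval of 5.4 to 7.69; these intervals cover counting error only.

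The fitted log2 differences of Testin from vehicle were 1.0 ± 0.42 (SE), 2.08 ± 0.39, 3.01 ± 0.38 and 3.26 ± 0.40 from the lowest to the highest dose, the last being 9.58-fold. At 600 mg/kg/day the gene had 92% of the log2 difference seen at 900 mg/kg/day, and from 600 to 900 mg/kg/day the difference was 0.25 ± 0.35. Its slope was 0.34 ± 0.046 log2 per 100 mg/kg/day. That upward slope had the smallest p of all tested genes, but members were chosen partly by this p, so the rank carries no test. Leaving out each library in turn moved its difference at 900 mg/kg/day between 2.90 and 3.67. Without both low-dose litters that stood apart, the differences were 1.18, 2.12, 3.05 and 3.27.

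**Figure D1:**
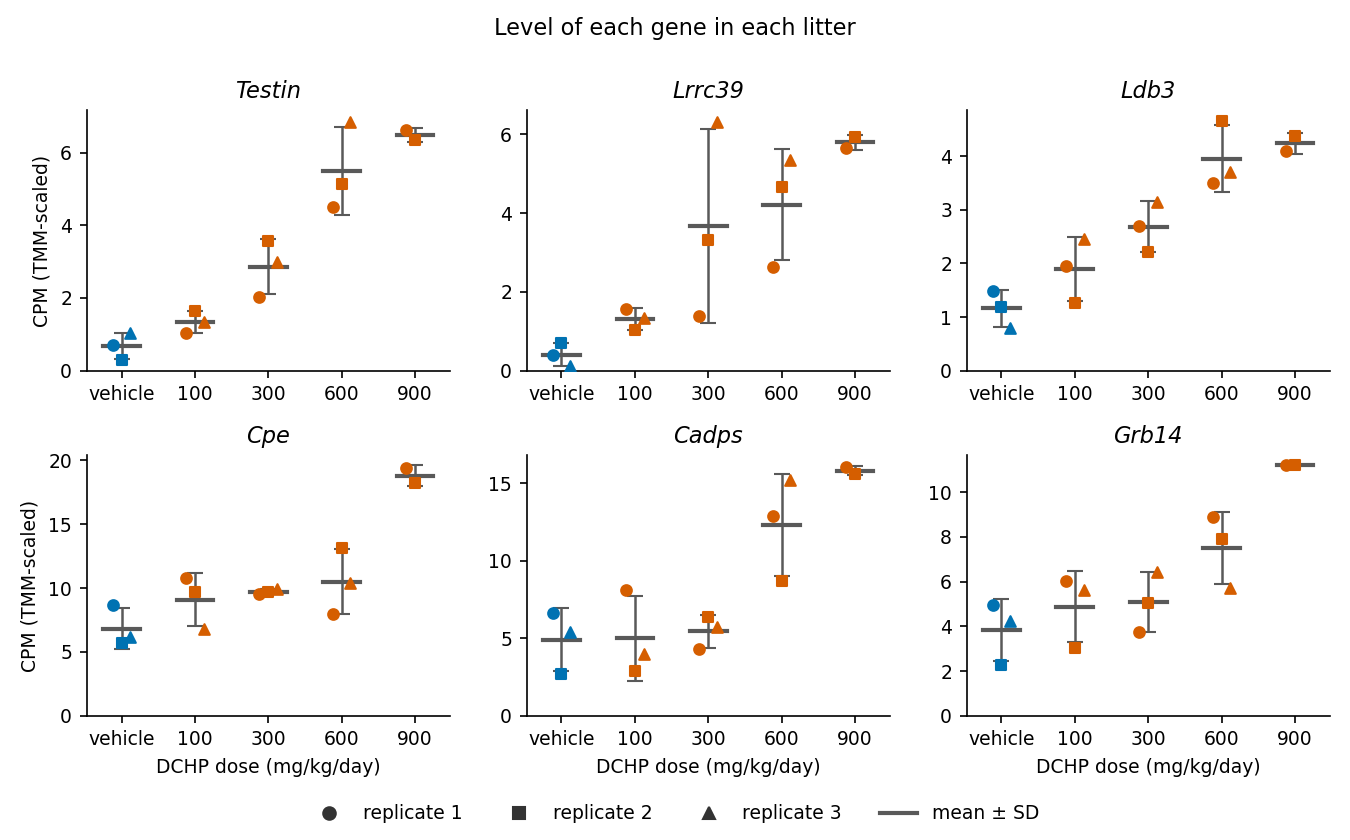
Level of each gene in each litter, in CPM on a linear axis from 0, against DCHP dose in mg/kg/day; points are litters, and bars are the mean ± SD over 3 litters (2 at 900 mg/kg/day). All 6 genes had their highest mean at 900 mg/kg/day, and Testin, Lrrc39, Ldb3 and Cpe were above every vehicle litter in all 3 litters at 300 mg/kg/day.

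The muscle genes Lrrc39 and Ldb3 had a Pearson r of 0.91 over 14 libraries on log2 CPM and a Spearman rho of 0.84. After the mean of each dose group was subtracted, r was 0.47. Other pairs were closer by those measures, with a rho of 0.88 for Testin with Ldb3 and a within-group r of 0.67 for Cadps with Grb14. The libraries share dose and scaling, and the members were chosen for a rise with dose, so these values describe the profiles only.

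Lrrc39 (ENSRNOG00000015117, rn7 chromosome 2, 204516123 to 204535464, plus strand), which encodes a leucine-rich repeat protein that binds myosin heavy chain at the M-band, was close to the detection floor in vehicle litters, with 4, 7 and 1 counts. Those were 0.397, 0.697 and 0.114 CPM, and the 12 counts together give 0.416 CPM with a Poisson 95% interval of 0.215 to 0.726. The litters had 1.57, 1.02 and 1.33 CPM at 100 mg/kg/day, from 12, 8 and 13 counts. All 3 of these lay above every vehicle litter.

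At 300 mg/kg/day the Lrrc39 litters were spread over 1.4, 3.32 and 6.3 CPM, the widest spread of any group of this gene. At 600 mg/kg/day they had 2.63, 4.66 and 5.36 CPM and at 900 mg/kg/day 5.66 and 5.93 CPM, from 47 and 69 counts. The groups at 100 and 300 and those at 300 and 600 mg/kg/day overlapped. Replicate 3 at 300 mg/kg/day exceeded every other litter of the study.

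The log2 differences of Lrrc39 from vehicle were 1.63 ± 0.65, 3.08 ± 0.60, 3.29 ± 0.60 and 3.77 ± 0.61, the last being 13.6-fold. Of the difference at 900 mg/kg/day, 43% was seen at 100 and 82% at 300 mg/kg/day. The size rests on few vehicle counts: without vehicle replicate 2 it was 4.38 at 900 mg/kg/day, and over the 14 omissions it ran from 3.37 to 4.38. Without both litters that stood apart, the 4 differences were 1.46, 3.04, 3.25 and 3.71.

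Ldb3 (ENSRNOG00000059166, rn7 chromosome 16, 9855927 to 9918533, minus strand) encodes a PDZ and LIM domain protein that ties alpha-actinin into the Z-disc. Vehicle litters had 1.49, 1.19 and 0.8 CPM, from 15, 12 and 7 counts. The litters had 1.96, 1.27 and 2.45 CPM at 100 mg/kg/day, and 2 of these 3 lay above every vehicle litter.

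At 300 mg/kg/day Ldb3 was at 2.69, 2.21 and 3.15 CPM, with all 3 litters above vehicle. It was at 3.5, 4.66 and 3.7 CPM at 600 mg/kg/day and at 4.1 and 4.38 CPM at 900 mg/kg/day, from 34 and 51 counts. The step from 300 to 600 mg/kg/day was the only one between neighbouring groups without overlap. The log2 differences from vehicle were 0.70 ± 0.33, 1.18 ± 0.32, 1.74 ± 0.32 and 1.85 ± 0.34, the last being 3.6-fold, and from 600 to 900 mg/kg/day the difference was 0.10 ± 0.32. Without both litters that stood apart, they were 0.91, 1.40, 1.96 and 2.03.

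The start regions of Lrrc39 and Ldb3 are printed because they hold motifs read by muscle transcription factors, and that of Cadps because it holds a nuclear receptor hexamer. They are RefSeq promoter windows of 300 bases on build GRCr8, 250 before to 50 after the annotated start and 5′ to 3′ on the gene's strand, so their coordinates differ from the rn7 positions above. Capitals mark motif matches.
Lrrc39 promoter, chr2:207200789-207201088: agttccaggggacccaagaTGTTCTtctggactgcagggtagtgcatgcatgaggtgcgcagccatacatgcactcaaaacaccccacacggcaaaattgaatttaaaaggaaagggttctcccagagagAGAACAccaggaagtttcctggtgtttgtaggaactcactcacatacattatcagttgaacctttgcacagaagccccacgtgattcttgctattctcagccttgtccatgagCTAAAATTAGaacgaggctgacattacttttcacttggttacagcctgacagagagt
Ldb3 promoter, chr16:9924630-9924929: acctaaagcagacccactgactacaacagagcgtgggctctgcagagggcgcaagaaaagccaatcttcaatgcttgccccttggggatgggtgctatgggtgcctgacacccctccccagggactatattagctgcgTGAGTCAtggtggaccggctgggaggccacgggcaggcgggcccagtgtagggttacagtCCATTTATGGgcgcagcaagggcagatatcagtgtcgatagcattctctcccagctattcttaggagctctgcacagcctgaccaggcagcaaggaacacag
Cadps promoter, chr15:14720476-14720775: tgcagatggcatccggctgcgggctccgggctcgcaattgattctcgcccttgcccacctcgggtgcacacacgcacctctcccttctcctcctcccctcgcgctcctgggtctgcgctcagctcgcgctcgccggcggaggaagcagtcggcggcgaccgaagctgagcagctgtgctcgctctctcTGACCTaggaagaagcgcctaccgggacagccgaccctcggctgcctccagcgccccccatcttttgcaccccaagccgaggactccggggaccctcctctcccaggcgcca

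In the Lrrc39 window the capitals mark AGAACA, the hexamer of androgen and glucocorticoid receptor elements, at -231 to -226 on the minus strand and at -120 to -115, and a MEF2 site at -7 to 2. In the Ldb3 window they mark TGANTCA, the Fos and Jun motif, at -112 to -106 and a CArG box, the serum response factor motif, at -52 to -43. In the Cadps window they mark AGGTCA on the minus strand at -62 to -57. Motifs were searched on both strands and no 2 of the capitalised matches overlap.

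These matches are descriptions of letters, and most motifs are common. Of 33469 promoter windows, 20.7% hold AGAACA, 16.2% AGGTCA, 7.3% TGANTCA, 3.3% a MEF2 site and 1.6% a CArG box. The E-box CANNTG, not capitalised, is in the windows of 5 of the 6 members, all but Ldb3, and in 72.1% of all windows. The TATA box TATAAA was in 0 of the 6 member windows and 14.2% of all windows, and the cAMP response element TGACGTCA in 0 and 1.8%. The GATA factor motif AGATAA was in 0 and 11.6%, and the Sox factor motif AACAAT in 0 and 11.7%. No motif other than CANNTG was shared by a pair of members.

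The windows differed in base composition. GC content was 47.0%, 46.3% and 57.3% for Testin, Lrrc39 and Ldb3, with 2, 4 and 8 CpG pairs. It was 64.7%, 68.7% and 77.0% for Cpe, Cadps and Grb14, with 22, 28 and 37 CpG pairs. The median window had 51.7% GC and 7 CpG pairs.

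Of the secretory genes, Cpe (ENSRNOG00000043387, rn7 chromosome 16, 25030276 to 25142234, plus strand) encodes carboxypeptidase E, which removes basic residues from the ends of cut prohormones. Vehicle litters had 8.64, 5.67 and 6.17 CPM, from 87, 57 and 54 counts. The litters had 10.8, 9.65 and 6.83 CPM at 100, 9.56, 9.7 and 9.9 CPM at 300, and 8, 13.1 and 10.4 CPM at 600 mg/kg/day. All of these neighbouring groups overlapped.

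At 900 mg/kg/day Cpe was at 19.4 and 18.2 CPM, from 161 and 212 counts, above every other litter. The log2 differences from vehicle were 0.41 ± 0.23, 0.51 ± 0.23, 0.61 ± 0.24 and 1.46 ± 0.25, the last being 2.75-fold. The step from 600 to 900 mg/kg/day was 0.85 ± 0.25. At 600 mg/kg/day 42% of the difference at 900 mg/kg/day was seen. Without both litters that stood apart, the differences were 0.47, 0.71, 0.82 and 1.63.

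Cadps (ENSRNOG00000008570, rn7 chromosome 15, 12290262 to 12742780, plus strand) encodes a calcium-dependent priming factor that readies granules for release. Vehicle litters had 6.65, 2.69 and 5.37 CPM, from 67, 27 and 47 counts. The litters had 8.1, 2.92 and 3.98 CPM at 100 and 4.3, 6.38 and 5.7 CPM at 300 mg/kg/day. These 3 groups overlapped throughout.

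At 600 mg/kg/day Cadps was at 12.9, 8.71 and 15.2 CPM, and at 900 mg/kg/day at 16 and 15.6 CPM, from 133 and 182 counts. All 5 litters lay above all 9 litters of the lower groups. The log2 differences from vehicle were 0.02 ± 0.39, 0.15 ± 0.39, 1.32 ± 0.38 and 1.69 ± 0.40, the last being 3.22-fold, and the step from 300 to 600 mg/kg/day was 1.17 ± 0.38. At 100 mg/kg/day the value was smaller than its SE and moved with single litters. It was -0.49 without replicate 1 of that group, one of the litters that stood apart. Without vehicle replicate 1 it was 0.31, and without vehicle replicate 2 it was -0.28. Without both litters that stood apart, the differences were -0.19, 0.44, 1.61 and 1.95.

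Grb14 (ENSRNOG00000052498, rn7 chromosome 3, 49568210 to 49683890, minus strand) had 4.96, 2.29 and 4.23 CPM in vehicle litters, from 50, 23 and 37 counts. The litters had 6.01, 3.05 and 5.61 CPM at 100 and 3.76, 5.03 and 6.45 CPM at 300 mg/kg/day. They had 8.88, 7.93 and 5.73 CPM at 600 mg/kg/day and 11.2 CPM in both litters at 900 mg/kg/day, from 93 and 130 counts. All neighbouring groups overlapped except the highest 2.

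The log2 differences of Grb14 from vehicle were 0.36 ± 0.33, 0.40 ± 0.33, 0.98 ± 0.33 and 1.54 ± 0.35, the last being 2.92-fold. Of the difference at 900 mg/kg/day, 26% was seen at 300 and 63% at 600 mg/kg/day. At 100 mg/kg/day the value fell to 0.09 without vehicle replicate 2. Without both litters that stood apart, the 4 differences were 0.45, 0.64, 1.23 and 1.76.

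**Figure D2:**
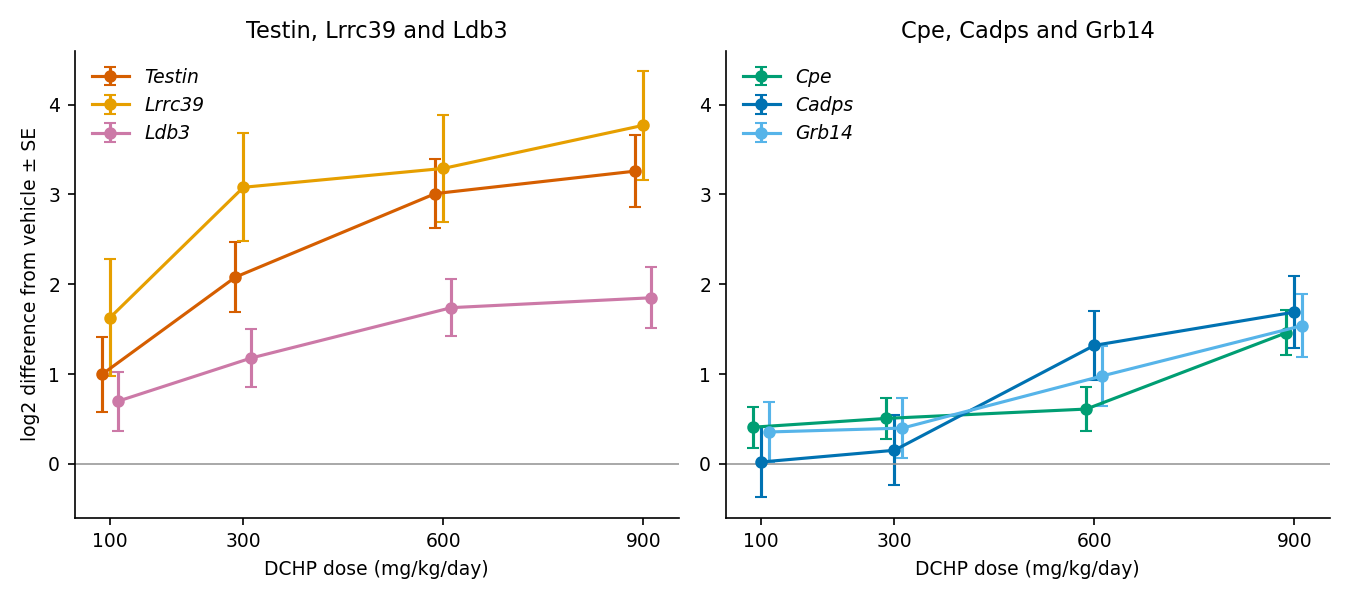
Fitted log2 difference from vehicle ± SE for each gene against DCHP dose in mg/kg/day, with points shifted sideways to separate them. Testin, Lrrc39 and Ldb3 reached 92%, 87% and 94% of their difference at 900 mg/kg/day by 600 mg/kg/day, against 42%, 78% and 63% for Cpe, Cadps and Grb14.

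Counted over the members, 2 of 6 had every litter above every vehicle litter at 100 mg/kg/day (Testin and Lrrc39), and 4 of 6 did at 300 mg/kg/day, when Ldb3 and Cpe joined them. At 600 mg/kg/day 5 of 6 did, all but Cpe, and at 900 mg/kg/day all 6 did. The share of all tested genes separated in this way was not computed. The members were chosen for a rise, so these counts are a description only. To pass, a gene needed an adjusted p (Benjamini-Hochberg, edgeR's quasi-likelihood test) under 0.05. The members that passed as higher were 0 at 100 and 300 mg/kg/day, 3 at 600 mg/kg/day (Testin, Lrrc39, Ldb3), 4 at 900 mg/kg/day (those and Cpe) and 5 over dose (all but Lrrc39).

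Of all tested genes, 0% were called higher and 0% lower at 100 mg/kg/day, and 0% and 0.0472% at 300 mg/kg/day. The shares were 0.0314% higher and 0.189% lower at 600 mg/kg/day, 0.0472% and 0.204% at 900 mg/kg/day, and 0.0943% and 0.33% over dose. Those higher shares are 4, 6 and 12 genes, from which the members were drawn, so the members' counts carry no further information. In edgeR 433 and 464 genes had an unadjusted p under 0.05 at 100 and 300 mg/kg/day, and DESeq2 called 0 and 26 genes there.

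At 600 and at 900 mg/kg/day the member nearest the threshold was Ldb3, with adjusted p of 0.0467 and 0.0419 in edgeR. Just outside lay Tnni1, a slow skeletal muscle troponin, at 600 mg/kg/day, with a log2 difference of 0.79 ± 0.17 and adjusted p = 0.17, and at 900 mg/kg/day a gene without a name, with 1.09 ± 0.20 and adjusted p = 0.0501. Over dose, Col14a1, a collagen, lay just inside at 0.07 ± 0.014 log2 per 100 mg/kg/day and Tecrl just outside at 0.24 ± 0.053. Lrrc39 was also outside over dose, with 0.32 ± 0.071 and adjusted p = 0.0617.

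The calls of Lrrc39, Ldb3 and Cpe depended on single litters more than that of Testin. Over the 14 omissions of 1 litter, Testin kept its call 14 times at 600 and 13 times at 900 mg/kg/day, losing it without replicate 1 at 900 mg/kg/day (adjusted p = 0.0599 in edgeR). Lrrc39 kept its call 3 and 10 times, Ldb3 2 and 3 times, and Cpe 6 times at 900 mg/kg/day. Over dose, Testin, Ldb3, Cadps, Grb14 and Cpe kept theirs 14, 13, 12, 11 and 10 times, and leaving out replicate 2 at 900 mg/kg/day ended all but that of Testin. Without both low-dose litters that stood apart, Testin, Ldb3 and Cadps passed at 600 mg/kg/day, where Lrrc39 lost its call (adjusted p = 0.0572 in edgeR) and Cadps gained one (adjusted p = 0.0193), and all 6 members passed in the trend and at 900 mg/kg/day. In that fit 0.523%, 16.7% and 11.8% of all tested genes passed at 600, at 900 mg/kg/day and in the trend, in either direction. The added calls of members there are therefore no firmer evidence on them. With the 2 groups compared fitted alone, 0 members passed at 600 and 0 at 900 mg/kg/day. With RLE size factors 1 member passed at 600 mg/kg/day. DESeq2 called 2 members at 300, 3 at 600 and 6 at 900 mg/kg/day, among 26, 58 and 85 genes called in either direction.

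Each member was chosen for a rise with dose, so positive correlations across all litters follow from the choice and are given as a description only. Over the 15 pairs of members, Pearson r of log2 CPM across 14 libraries ran from 0.63 to 0.91. After the group means were subtracted it ran from -0.41 for Testin with Ldb3 to 0.67 for Cadps with Grb14, and 14 of the 15 pairs were under 0.5. Within groups Cadps, Grb14 and Cpe had, with the first principal component, an r of 0.81, 0.64 and 0.62 towards the side of the litters at 900 mg/kg/day. For Testin, Lrrc39 and Ldb3 those values were 0, 0.08 and 0.33.

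Other cell types' markers moved with some members. Of 17 skeletal muscle markers 13 were in the table, and their summed level was 86.5 to 105 CPM in vehicle, 94.4 to 115 CPM at 300, 134 to 194 CPM at 600 and 120 to 127 CPM at 900 mg/kg/day. The sum was highest in replicate 1 at 600 mg/kg/day, at 194 CPM, the litter in which Lrrc39 and Ldb3 were lowest of that group. It weighs Tnni1 most, which had 7617 counts over all libraries, followed by Mylpf with 2293. Tnni1 and Mylpf had log2 differences of 0.79 ± 0.17 and 0.92 ± 0.33 at 600, and 0.59 ± 0.19 and 0.04 ± 0.37 at 900 mg/kg/day. In edgeR 0 of the 11 tested markers passed at any dose or in the trend; their median log2 difference was 0.97 at 600 and 0.022 at 900 mg/kg/day, beside -0.021 and 0.024 for all genes. The defining regulators Myod1 and Myog were counted 82 and 122 times over all 14 libraries. Across libraries the sum had an r of 0.72 with Ldb3 and 0.56 with Lrrc39, and of 0.32 and 0.02 within groups. Its part in the members' differences was not tested.

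Further marker sums stood beside the members' values as follows. The 9 peritubular and smooth muscle markers summed to 292 to 330 CPM in vehicle and 329 to 444 CPM at 900 mg/kg/day, with r of 0.74 with Lrrc39 (0.48 within groups). The 9 interstitial progenitor markers summed to 772 to 939 CPM in vehicle, 782 to 818 CPM at 600 and 1050 to 1060 CPM at 900 mg/kg/day. Their within-group r was 0.76 with Cadps, 0.61 with Cpe and 0.58 with Grb14. These values were not particular to that list. Within groups r was -0.89 for Cadps with the adrenal cortex sum, 0.77 for Cpe with the erythroid sum and -0.73 for Grb14 with the sum for neurons and glia. Within groups the Sertoli sum had an r of -0.76 with Cadps. The fetal Leydig sum was 6540 to 11700 CPM in vehicle and 1610 to 1970 CPM at 900 mg/kg/day, and it had an r of -0.84 to -0.91 with the 6 members. The 8 mesonephric duct and epididymis markers summed to 591 to 698 CPM in vehicle, 145 to 176 CPM at 300 and 85.4 to 95.7 CPM at 900 mg/kg/day, with an r of -0.95 with Testin, -0.91 with Lrrc39 and with Ldb3, and -0.70 to -0.73 with the other 3 members. Within groups those values were -0.26 for Testin, -0.31 for Lrrc39 and -0.12 for Ldb3. That sum weighs the seminal vesicle secretory protein gene Svs5 most, which had 30539 counts over all libraries, followed by Krt8 with 5132. Of the 4 tested genes of the list 1 passed as lower, Svs5, with a log2 difference of -4.61 ± 0.45 at 900 mg/kg/day (adjusted p = 0.000729 in edgeR). The median log2 difference of the 4 was -0.26 there, beside 0.024 for all genes, and 1 of the 4 was positive. The 8 heart muscle markers summed to 56.9 to 132 CPM in vehicle and 56.4 to 60 CPM at 900 mg/kg/day, with an r of -0.64 with Lrrc39 and -0.57 with Ldb3 (-0.43 and -0.30 within groups), and 0 of their 5 tested genes passed. The part of these sums in the members' differences was not tested.

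**Figure D3:**
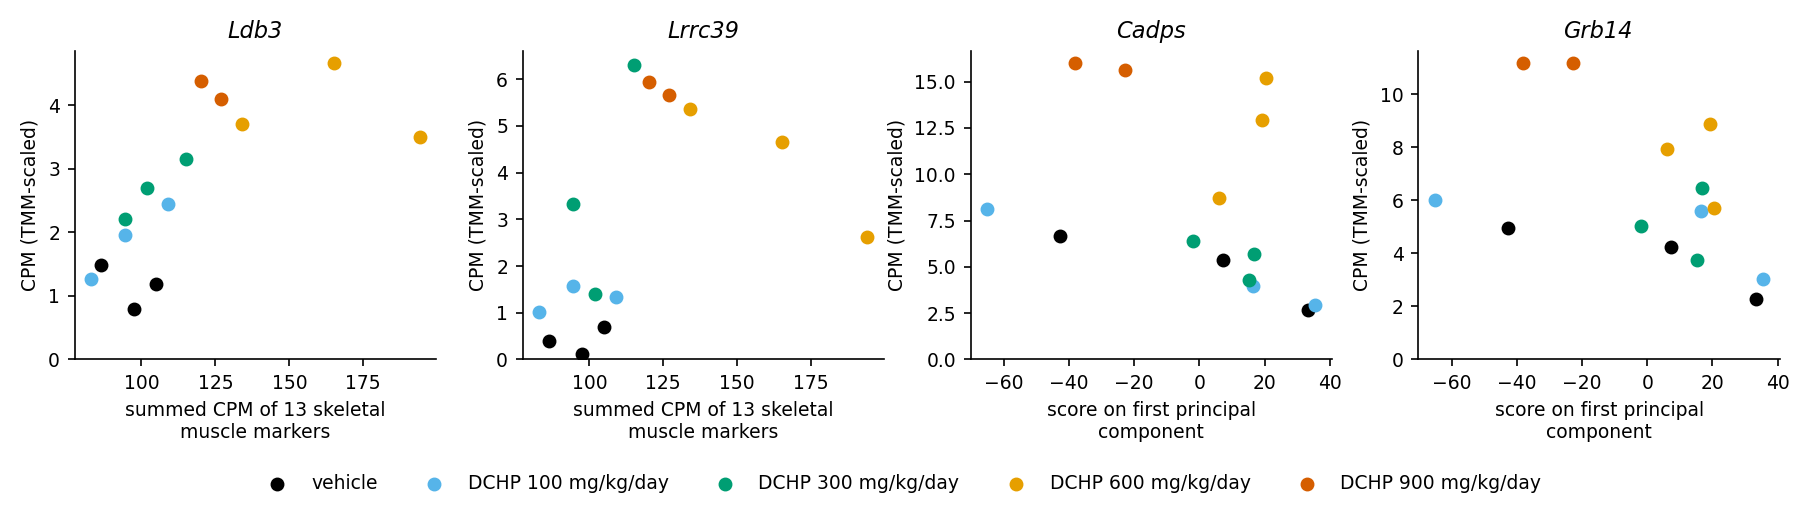
Levels of Ldb3 and Lrrc39 in each of 14 litters in CPM against the summed CPM of 13 skeletal muscle markers, and of Cadps and Grb14 against the score on the first principal component (no unit); each point is 1 litter, coloured by dose group. The litter with the highest muscle sum, 194 CPM, was not the highest in Ldb3 or Lrrc39, and Cadps and Grb14 were higher in vehicle replicate 1 and in replicate 1 at 100 mg/kg/day, at -42.6 and -65.1, than in the other litters of their groups.

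In the fit to all litters, 0 of 111 tested genes in 6 partner lists were called higher at any dose or over dose. Of all tested genes, 0.0314%, 0.0472% and 0.0943% were called higher at 600, at 900 mg/kg/day and over dose. At such shares a count of 0 among 111, or in a single list, is no result about the partners. Called lower at 600 and at 900 mg/kg/day was 1 partner. That share, 0.901%, stands beside 0.189% and 0.204% of all genes called lower, but it is 1 gene and shows no excess among the partners. The gene was Cplx2, which encodes a complexin that clamps and promotes vesicle fusion, in the list of Cadps partners. Over dose Cplx2 did not pass (adjusted p = 0.0687 in edgeR). At an unadjusted p under 0.05, 2, 2, 5, 6 and 6 of the 111 partners were found in edgeR at the 4 doses in rising order and in the trend. Of all 12719 tested genes, 433, 464, 609, 635 and 648 were found in that way, so these counts are no result about the partners.

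Cplx2 was at 84, 97.3 and 84.6 CPM in vehicle litters and at 50.2, 70.5 and 61.3 CPM at 100 mg/kg/day. It was at 63.1, 58 and 64.4 CPM at 300, at 49.1, 52.4 and 51 CPM at 600 and at 51.9 and 48.2 CPM at 900 mg/kg/day. Every dosed litter lay below every vehicle litter, the opposite direction to Cadps. The log2 differences were -0.80 ± 0.13 at 600 (adjusted p = 0.0296 in edgeR, lower in 3 of 3 litters) and -0.83 ± 0.15 at 900 mg/kg/day (adjusted p = 0.0419, lower in 2 of 2). The call was kept in 5 and 3 of the 14 omissions of 1 litter, with the difference between -0.84 and -0.73 and between -0.87 and -0.75. The omissions that kept it at both doses were vehicle replicate 1 and, of the group at 100 mg/kg/day, replicates 1 and 2, and it was kept at 600 mg/kg/day also without either litter at 900 mg/kg/day; leaving out any other litter ended it.

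Among the cathepsins and cystatins listed with Testin none passed in the fit to all litters. Of 26 listed cathepsins and cystatins 15 were tested, with a median log2 difference of -0.02 at 900 mg/kg/day beside 0.024 for all genes. Ctsl, the lysosomal protease cathepsin L, was at 559 ± 67.2 CPM (n = 3) in vehicle and 551 ± 29.4 CPM (n = 2) at 900 mg/kg/day. The smallest trend p belonged to Ctsb, Ctsc and Cst8, with log2 differences of -0.52 ± 0.28, -0.54 ± 0.26 and -0.78 ± 0.38 at 900 mg/kg/day. Without both low-dose litters that stood apart, Ctsc and Cst8 passed as lower there, with -0.72 ± 0.20 (adjusted p = 0.0232 in edgeR) and -1.08 ± 0.18 (adjusted p = 0.00271). In that fit 16.7% of all tested genes passed at 900 mg/kg/day, in either direction. Of 21 Sertoli junction genes 17 were tested and 0 passed in the fit to all litters, with a median of 0.23 at 900 mg/kg/day. There Vcl, Cldn11 and Marveld2, which encode vinculin, a claudin and tricellulin, had 0.25 ± 0.14, -0.39 ± 0.23 and 0.38 ± 0.25.

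Of 29 listed Z-disc and M-band genes 20 were tested and 0 passed, with a median log2 difference of -0.036 at 600 and 0.19 at 900 mg/kg/day. Myom1, the M-band bridge myomesin, had 0.84 ± 0.28 and 0.82 ± 0.30, and Synpo2, a Z-disc actin-bundling protein, had 0.68 ± 0.39 and 1.06 ± 0.41. Over dose their adjusted p were 0.176 and 0.237 in edgeR. Of the relatives of Ldb3, Pdlim3 was at 2.5 ± 0.206 CPM (n = 3) in vehicle and 3.55 ± 0.771 CPM (n = 2) at 900 mg/kg/day, and Pdlim5 at 4.17 ± 0.862 and 4.78 ± 1.42 CPM. Pdlim4 had 0.31 ± 0.14 at 600 and 0.11 ± 0.16 at 900 mg/kg/day. Actn3, Tcap, Myoz1 and Myoz2 had 40, 11, 15 and 33 counts over all libraries and were below the filter. Pdlim7 was not among the counted genes under that symbol.

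Of 21 prohormone processing genes 16 were tested and 0 passed, with a median of -0.019 at 900 mg/kg/day. Cpd, the carboxypeptidase of the secretory pathway most like Cpe in function, was at 37.9 ± 8.53 CPM (n = 3) in vehicle and 32.5 ± 6.16 CPM (n = 3) at 600 mg/kg/day. At 900 mg/kg/day it was at 54.9 to 58.3 CPM, above the vehicle range of 31.1 to 47.5 CPM, with a log2 difference of 0.58 ± 0.25 and adjusted p = 0.852 in edgeR. Aebp1, a carboxypeptidase-like matrix protein, had -1.20 ± 0.49 and Chgb, the granule protein chromogranin B, -1.56 ± 1.0.

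Of 32 vesicle priming and fusion genes 19 were tested, with a median of -0.06. Beside Cplx2, the active zone scaffold Rims2 had -1.16 ± 0.44 and Sytl2, a synaptotagmin-like granule protein, 0.44 ± 0.28 at 900 mg/kg/day. The priming factors Unc13a, Unc13b and Unc13c had 47, 13 and 23 counts over all libraries and were below the filter. Cadps2 was not among the counted genes under that symbol. Of 27 insulin receptor signalling genes 24 were tested and 0 passed, with a median of 0.098. The adaptors most like Grb14 were at 0.954 ± 0.365 and 1.11 ± 0.375 CPM (Grb7) and at 30.3 ± 0.209 and 34.4 ± 0.717 CPM (Grb10) in vehicle and at 900 mg/kg/day. Irs1, Irs2 and Pik3ca, a pair of receptor substrates and a kinase subunit, had slopes of 0.049 ± 0.031, 0.036 ± 0.020 and 0.045 ± 0.028 log2 per 100 mg/kg/day.

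**Figure D4:**
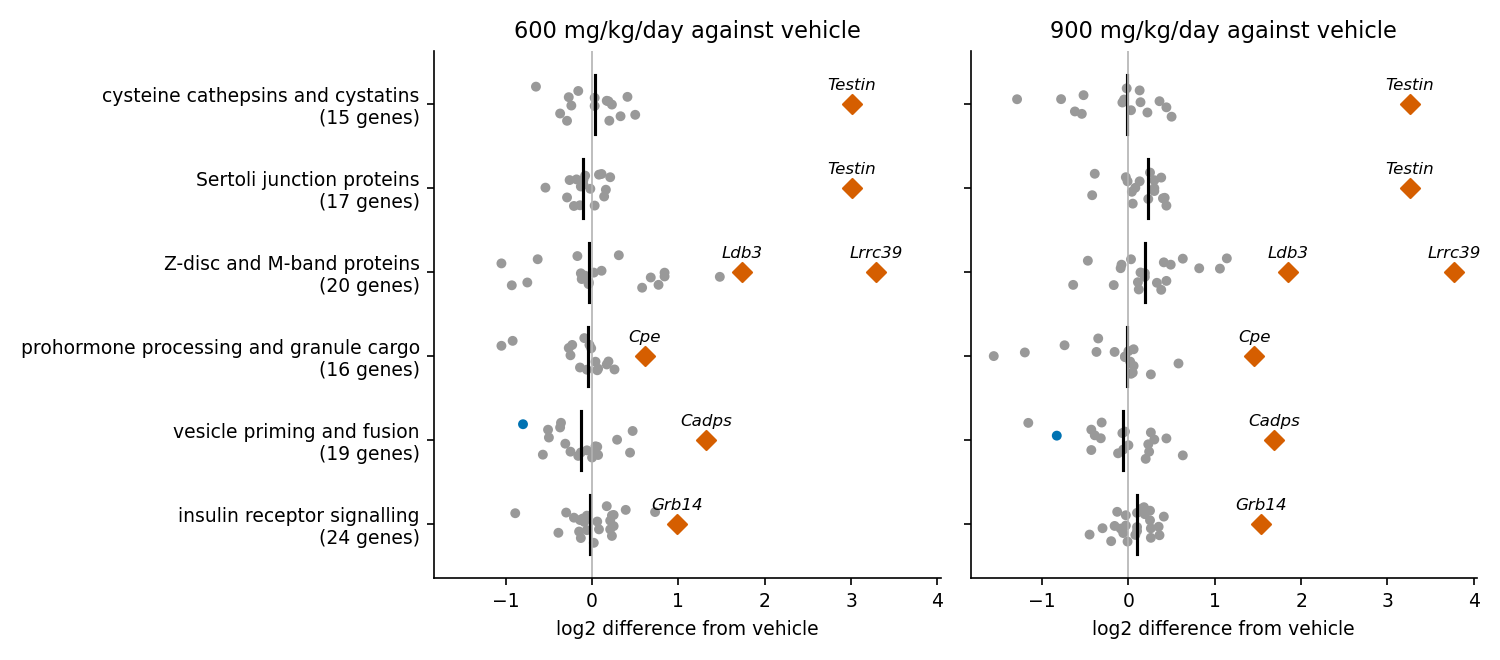
Log2 difference from vehicle at 600 and 900 mg/kg/day for the tested genes of 6 partner lists (circles, spread vertically only for legibility), with the list median (black line) and the members themselves (diamonds); blue marks Cplx2, the single partner that passed. The members lie to the right of their list medians, which the choice of members fixes, and the medians lie between -0.13 and 0.23.

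Without both low-dose litters that stood apart, 16 partners passed at 900 mg/kg/day, 10 higher and 6 lower. That is 14.4% of the 111, beside 16.7% of all 12608 genes tested in that fit. Those higher included Cpd (0.75 ± 0.17), Synpo2 (1.42 ± 0.44), the giant sarcomere protein gene Ttn (1.80 ± 0.47) and the insulin receptor gene Insr (0.53 ± 0.17). Those lower included Cplx2 (-0.89 ± 0.12), Cst8 (-1.08 ± 0.18) and Rims2 (-1.41 ± 0.43). Those litters were set aside for their place on a component near the litters at 900 mg/kg/day, so this fit is no independent evidence.

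The genes most like each member over the 14 libraries were ranked by Pearson r of log2 CPM among 10440 genes with a mean count of at least 20. For Testin they were Stc1, Plat and Dsel, with r of 0.891, 0.876 and 0.872 and within-group r of 0.29, 0.72 and 0.46. For Lrrc39 they were Lamc3, Abcg1 and Cd55, with 0.848, 0.818 and 0.812 and within-group values of 0.76, 0.61 and 0.27. For Ldb3 they were Fam227a, Hhip and Cryab, with 0.923, 0.866 and 0.846 and within-group values of 0.83, 0.68 and 0.50. Stc1, which encodes the hormone stanniocalcin, was also the gene beside the members that passed as higher at 600 mg/kg/day, with a log2 difference of 1.58 ± 0.23.

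Cpe was most like Tnfsf13, Bcam and Plxdc2, with r of 0.863, 0.818 and 0.816 and within-group r of 0.84, 0.68 and 0.70. Cadps was most like Cep85l, Fbxo32 and Gpc3, with 0.914, 0.875 and 0.854 and within-group values of 0.79, 0.76 and 0.86. Grb14 was most like Gpc3, Fbln2 and Pvr, with 0.879, 0.874 and 0.829 and within-group values of 0.80, 0.77 and 0.72. Gpc3, which encodes the glypican that binds growth factors at the cell surface, was thus on the lists of both Cadps and Grb14. Ranked by Spearman rho, 1, 0, 2, 0, 2 and 1 of the 3 genes recurred for Testin, Lrrc39, Ldb3, Cpe, Cadps and Grb14. The libraries share dose, scaling and the first principal component.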

How the data were processed

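TempO-Seq libraries of 14 litters were analysed. The submitters' processing notes name STAR 2.7.8a, Partek, DESeq2 and build rn7, without roles; the counting tool is not given in the sources used here. The estimated counts per gene were deposited by the authors and were rounded before testing. Another deposited table rescales 16 genes for attenuation, none of them a member.

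A quasi-likelihood model of the 5 groups was fitted to all litters after filterByExpr and TMM scaling (edgeR 4.0.16, limma 3.58.1, R 4.3.3), with 9 residual degrees of freedom; dose as a number was fitted apart. Adjusted p-values are Benjamini-Hochberg over 12719 genes, two-sided. The script was tested on simulated data. The litter is the unit of replication.

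Members and lists were chosen with earlier results of these data known. Named genes are the members, list genes that passed, the 3 partners per list with the smallest trend p, fixed paralogues, the neighbours of each threshold and the 3 named genes most like each member; 7 identifiers without a name were passed over there. Further partners without both set-aside litters were named after their values were seen. Promoters came from RefSeq (GRCr8), with all 6 members matched by symbol. Other scalings, no filter, DESeq2 1.42.0, attenuation-adjusted counts, 2-group fits and omitted litters were tried.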

Additional observations from a re-analysis of the deposited data

How the results depend on the processing

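Without each litter in turn, the number of genes passing was 0 to 0 at 100, 0 to 9 at 300, 6 to 50 at 600, 0 to 50 at 900 mg/kg/day and 30 to 76 in the trend, against 0, 6, 28, 32 and 54 with all litters; partner genes ranged from 0 to 1 at 600, at 900 and in the trend. DESeq2 called 26, 58 and 85 genes at the 3 highest doses and 119 in the trend, with 1 partner in the trend. With replicate 1 of vehicle and of 100 mg/kg/day both left out, those counts were 39, 66, 2102 (962 higher, 1140 lower) and 1494, with 1, 1, 16 and 13 partners. With the 2 groups compared alone, 8 and 4 genes passed at 600 and 900 mg/kg/day and 0 partners and 0 members at each. RLE size factors gave 15 genes, 1 member and 0 partners at 600, library totals alone 0 partners at 900 mg/kg/day, and the rank of the dose 1 partner over dose. The causes were not tested.

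No member value that had passed changed sign. Of 420 member values with a litter left out, 5 moved by more than the SD between litters, as did 0 of 202 under the other alternatives. In the fits of 100 mg/kg/day with vehicle alone, Testin and Lrrc39 were below the filter. No paired analysis was possible because litters carry no replicate number in the labels, and numbers here follow accession order. Depth limits Testin, Lrrc39 and Ldb3 most, since single vehicle litters gave 1 to 15 counts.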
